A study of Homo sapiens with 3 samples.

Results

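SH2B2, IRS2 and 8 further genes whose proteins act beneath receptor tyrosine kinases were followed across 3 libraries of SW48 cells. This is a long-established line from a human colorectal tumour. The genes code for adaptor and docking proteins, the exchange factor SOS1 and the ubiquitin ligase CBL. The members were SH2B1, SH2B2, SH2B3, IRS1, IRS2, GAB1, SHC1, GRB2, SOS1 and CBL. They are 10 of 18282 genes named on the array, and their probes are 15 of the 24658 probes with a single gene symbol. The set was chosen because SH2B2 was higher in both libraries with a DDX3 plasmid than in the empty-vector library. The SH2B2 values against the vector library are therefore a description that was selected on those same values, and they support nothing by themselves.

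RNA was measured on 1-colour arrays labelled with Cy5, with 1 sample in each of 3 groups. The first group was SW48 cells with a DDX3 overexpression plasmid and a YAP1 knockdown plasmid (labelled DDX3+YAPsi), the next was cells with the DDX3 plasmid alone (labelled DDX3), and the last was cells with the empty vector pcDNA3.1 (labelled V, here the vector library). All 3 groups shared a selection with G418 that lasted 4 weeks, after which the stable cells were taken. The knockdown plasmid was never present without the DDX3 plasmid, so an effect of it that does not depend on DDX3 cannot be told apart. DDX3 is an RNA helicase of the DEAD-box family, and YAP1 is the transcriptional coactivator at the end of the Hippo pathway. The labels do not say whether each group was a clone or a pool.

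When a ligand activates a receptor tyrosine kinase, phosphorylated tyrosines on the receptor become docking sites for proteins with SH2 or PTB domains. Adaptors and docking proteins carry no catalytic activity of their own and bring enzymes to the receptor. SHC1 and GRB2 bring SOS1, which loads RAS with GTP. IRS1, IRS2 and GAB1 are docking proteins that present many tyrosines, above all to phosphoinositide 3-kinase and the phosphatase SHP2. SH2B1, SH2B2 and SH2B3 bind receptor kinases and JAK kinases, and SH2B1 and SH2B2 bind the insulin receptor. CBL is a ubiquitin ligase that SH2B2 can bring to the insulin receptor. In intestinal epithelium such adaptors serve growth factor and insulin signals.

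Promoters of SH2B2, IRS2 and IRS1 are shown because these genes had the largest positive differences from the vector library among the members. The sequences are those of RefSeq on GRCh38.p14, from 250 bases before to 50 bases after the annotated transcript start, each read 5′ to 3′ on the gene's own strand. Capitals mark a TEAD motif (GGAATG or its complement CATTCC, the letters bound by the TEAD factors that YAP1 coactivates) or an AP-1 motif (TGACTCA or its complement TGAGTCA). These motifs do not overlap each other in the windows shown. The SH2B2 window lies at chr7:102289216-102289515 on the plus strand, the IRS2 window at chr13:109786534-109786833 on the minus strand and the IRS1 window at chr2:226799771-226800070 on the minus strand.
SH2B2: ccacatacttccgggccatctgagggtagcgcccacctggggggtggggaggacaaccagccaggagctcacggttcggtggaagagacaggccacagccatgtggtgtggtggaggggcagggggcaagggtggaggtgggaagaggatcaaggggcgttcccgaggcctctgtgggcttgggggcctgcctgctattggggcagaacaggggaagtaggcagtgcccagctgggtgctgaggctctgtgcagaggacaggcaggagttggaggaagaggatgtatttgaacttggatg
IRS2: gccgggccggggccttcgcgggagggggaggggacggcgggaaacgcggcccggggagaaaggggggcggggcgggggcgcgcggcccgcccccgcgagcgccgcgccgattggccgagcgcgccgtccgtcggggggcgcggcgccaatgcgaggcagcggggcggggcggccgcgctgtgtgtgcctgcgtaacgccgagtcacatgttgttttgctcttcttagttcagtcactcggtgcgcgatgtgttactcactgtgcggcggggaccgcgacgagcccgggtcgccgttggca
IRS1: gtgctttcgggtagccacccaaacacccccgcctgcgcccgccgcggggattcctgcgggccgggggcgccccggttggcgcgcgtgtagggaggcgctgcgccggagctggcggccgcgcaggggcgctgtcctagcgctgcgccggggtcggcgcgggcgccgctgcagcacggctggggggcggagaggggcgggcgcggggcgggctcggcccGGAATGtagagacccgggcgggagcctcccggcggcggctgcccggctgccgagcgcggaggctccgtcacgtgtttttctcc

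The IRS1 window held 1 TEAD motif, from base 218 to base 223 counted from its 5′ end, and no AP-1 motif. Neither motif occurred in the SH2B2 and IRS2 windows. Among all 35116 RefSeq promoter windows of this length, 14.0% held the TEAD letters and 4.95% the AP-1 letters. The SH2B2 window was poor in CpG, with 6 such dinucleotides, whereas the IRS2 window held 50 and the IRS1 window 47, beside a median of 14 over all windows. The SH2B2 transcript start in the table lies 4325 bases inside the annotated gene, which spans chromosome 7 from 102285141 to 102321711. In all, 8 of the 10 member genes matched the table, with 12 windows, and GAB1 and CBL had no entry in it. The only other motif among the member windows was 1 AP-1 motif in a second SHC1 window. Probe positions within transcripts were not used here.

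Each deposited value is a probe intensity, on a linear scale. Deposited medians were 305, 414 and 469 in the DDX3+YAPsi, DDX3 and vector libraries, so each library was multiplied to a common 75th percentile, and a floor was set at the 50th percentile of each library (scaled intensities of 411, 382 and 378). A probe was measured in a comparison when both libraries reached the floor, and 2-fold (1 on the log2 scale) was the threshold for calling it higher or lower. As each group is a single sample, replicate spread is unknown, no difference was tested, and the number of arrays limits the precision. In bulk samples fewer cells of a type and less RNA per cell cannot be told apart. The gene of the overexpressed helicase did not bear out the labels: of its 2 DDX3X probes the brighter one had 48085, 57967 and 49549 in the DDX3+YAPsi, DDX3 and vector libraries, and the dimmer one 813, 879 and 1975. YAP1, the target of the knockdown, had 20768, 20279 and 18298 in the same order. The dimmer DDX3X probe was thus past 2-fold lower, at -1.28 for DDX3+YAPsi over vector and -1.17 for DDX3 over vector. Where the DDX3X and YAP1 probes lie was not used here, and the cause of these values was not tested. Every library is therefore called by its label, and each direction below depends on labels that these genes did not bear out. Of 9 colorectal epithelial markers on the array 7 to 8 were at or above the floor in each library, among them EPCAM, CDH1, CDX2 and KRT19 at 26.6 times the floor or more. LGALS4, CDX1, KRT20 and KRT8 stood near the floor, between 0.865 and 1.74 times it, with KRT8 below it in DDX3+YAPsi. VIL1 was below the floor in all 3. Fibroblast markers at or above the floor numbered 1, 1 and 2 of 6 in the DDX3+YAPsi, DDX3 and vector libraries, and immune markers 2 of 4 in each. COL1A1, CD14 and CD68 reached it everywhere. Endothelial markers stood at 2, 1 and 0 of 4, each at most 1.31 times the floor, with summed scaled intensities of 1239, 1017 and 913. That sum has the same order of libraries as SH2B2, and its part in the results was not tested.

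SH2B2, also known as APS, is the member with the widest range. Its single probe (PH_hs_0024181) had a scaled intensity of 3192 in DDX3+YAPsi, 2306 in DDX3 and 828 in the vector library. Both libraries with the DDX3 plasmid were thus well above the vector library, where the probe was at 2.19 times the floor. The log2 difference was 1.95 for DDX3+YAPsi over vector, a 3.85-fold higher value, and 1.48 for DDX3 over vector, 2.78-fold. These differences ranked 2 from the highest of 13098 measured probes and 7 from the highest of 13161. Between the libraries labelled DDX3+YAPsi and DDX3 the difference was 0.47, rank 940 of 13109. The deposited, unscaled intensities were 2372, 2499 and 1028, so the libraries labelled DDX3+YAPsi and DDX3 changed places without scaling (-0.08), while both remained above the vector library (1.21 and 1.28).

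The other SH2B genes differed far less from the vector library than SH2B2, whose values against that library chose the set. SH2B1 (chr16:28846606-28874205), which binds JAK2 and the insulin receptor and is known for its part in leptin signalling, had 5075 in DDX3+YAPsi, 3889 in DDX3 and 4429 in the vector library. Its log2 differences were 0.20 for DDX3+YAPsi over vector, 0.38 for DDX3+YAPsi over DDX3 and -0.19 for DDX3 over vector, all short of 1.5-fold. SH2B3 (chr12:111404730-111451623), also called LNK and known as a brake on cytokine receptors in blood cells, had 858, 745 and 658 in DDX3+YAPsi, DDX3 and vector. Its order of libraries was that of SH2B2, but the differences were 0.38 for DDX3+YAPsi over vector and 0.18 for DDX3 over vector. Without scaling, all of these SH2B1 and SH2B3 differences were negative, for example -0.54 for SH2B1 and -0.36 for SH2B3 with DDX3+YAPsi over vector. A gap between probes of the same libraries does not depend on a factor common to a library, since it cancels. The SH2B2 difference exceeded that of SH2B1 by 1.75 and that of SH2B3 by 1.57 for DDX3+YAPsi over vector, and by 1.66 and 1.30 for DDX3 over vector. The gaps against the vector library follow from the choice of SH2B2, so nothing is read from them. Between DDX3+YAPsi and DDX3 the gaps were only 0.09 and 0.27.

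**Figure D1:**
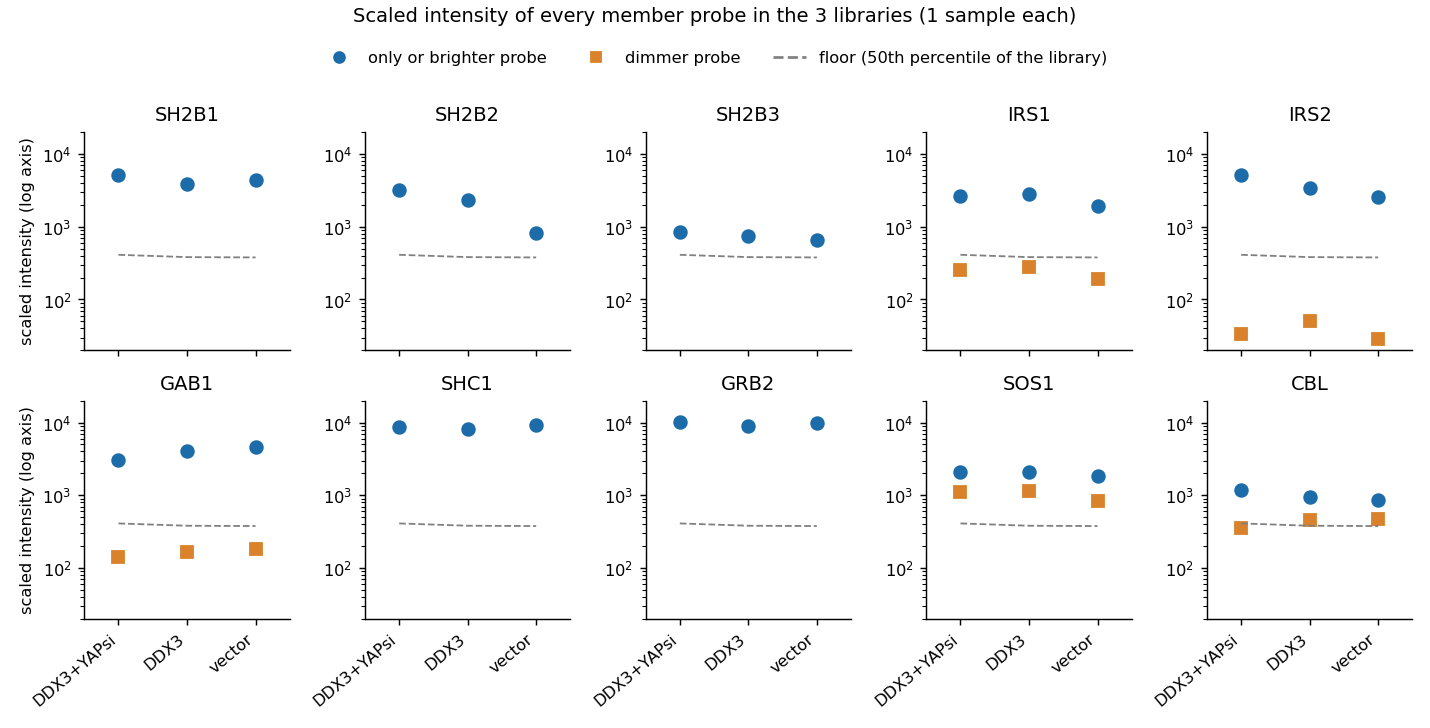
Scaled intensity (log axis) of every probe of the 10 members in the libraries labelled DDX3+YAPsi, DDX3 and vector, 1 sample each, with circles for the only or brighter probe, squares for the dimmer probe and a dashed line for the floor. SH2B2 stands at 3192 and 2306 in the libraries with the DDX3 plasmid and at 828 in the vector library, while GRB2 and SHC1 lie nearly level.

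Among the docking proteins the IRS genes were higher and GAB1 lower in DDX3+YAPsi than in vector, with IRS1 turning lower without scaling. IRS2 (chr13:109752695-109786583), the insulin receptor substrate best known from liver and pancreatic beta cells, had 5061 in DDX3+YAPsi, 3409 in DDX3 and 2538 in vector with its brighter probe (PH_hs_0048588). The 3 libraries thus stood in the same order as for SH2B2. The log2 differences were 0.996 (1.99-fold, just under the 2-fold threshold and rank 54 of 13098) for DDX3+YAPsi over vector, 0.57 for DDX3+YAPsi over DDX3 and 0.43 for DDX3 over vector. Without scaling the first of these was 0.26. The dimmer IRS2 probe (PH_hs_0008458) lay at 33.8, 49.9 and 28.4, at most 0.13 times the floor, and has no usable difference. Taken anyway, it gave -0.56 for DDX3+YAPsi over DDX3, opposite in sign to the brighter probe. In the comparisons with vector the IRS2 probes had the same sign.

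IRS1 (chr2:226731312-226799820), the substrate that links the insulin and IGF1 receptors to phosphoinositide 3-kinase, had 2617 in DDX3+YAPsi, 2827 in DDX3 and 1906 in vector with its brighter probe (PH_hs_0024522). Both libraries with the DDX3 plasmid were above the vector library, and the library labelled DDX3 was the highest. The differences were 0.46 for DDX3+YAPsi over vector, -0.11 for DDX3+YAPsi over DDX3 and 0.57 for DDX3 over vector, the last at rank 370 of 13161. The dimmer IRS1 probe (PH_hs_0048800) was below the floor in every library, at 253, 281 and 191. It stood in the same order, with differences that were at most about 0.05 from those of the brighter probe. Without scaling IRS1 turned to -0.28 for DDX3+YAPsi over vector and stayed at 0.37 for DDX3 over vector.

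GAB1 (chr4:143336876-143474565), a docking protein of the EGF and MET receptors that recruits SHP2, was the lowest member in the comparison with the vector library. Its brighter probe (PH_hs_0047459) had 3016 in DDX3+YAPsi, 4055 in DDX3 and 4652 in vector. The log2 differences were -0.63 for DDX3+YAPsi over vector (rank 411 from the lowest of 13098), -0.43 for DDX3+YAPsi over DDX3 and -0.20 for DDX3 over vector. The dimmer GAB1 probe (PH_hs_0022194), below the floor at 143, 164 and 182, had the same order of libraries and differences of -0.35, -0.20 and -0.16 in the same comparisons. Set against IRS2, the gap between both docking proteins was 1.62 for DDX3+YAPsi over vector and 0.62 for DDX3 over vector. Without scaling the brighter GAB1 probe reached -1.37 for DDX3+YAPsi over vector, past 2-fold, as did 20.8% of all measured probes.

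The branch that leads to RAS differed little. SHC1 (chr1:154962298-154974376), the PTB and SH2 adaptor that binds activated receptors, had 8792 in DDX3+YAPsi, 8199 in DDX3 and 9395 in vector. GRB2 (chr17:75318076-75405678), the adaptor that carries SOS1 to receptors and docking proteins, had 10040, 8988 and 9811. For both the library labelled DDX3 was the lowest and no difference passed 0.20 in size. SOS1 (chr2:38981549-39124868), the exchange factor that activates RAS, had 2060, 2065 and 1861 in DDX3+YAPsi, DDX3 and vector with its brighter probe (PH_hs_0047392) and 1101, 1130 and 842 with the dimmer one (PH_hs_0016186). Both SOS1 probes were above the floor everywhere and lowest in the vector library. Their log2 differences were 0.15 and 0.39 for DDX3+YAPsi over vector, -0.003 and -0.04 for DDX3+YAPsi over DDX3, and 0.15 and 0.42 for DDX3 over vector. Without scaling every SHC1, GRB2 and SOS1 difference was negative apart from that of the dimmer SOS1 probe for DDX3 over vector (0.23).

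CBL (chr11:119206339-119308149), the RING-type ubiquitin ligase that tags activated receptors for degradation, had a differing order of libraries for its 2 probes. Its brighter probe (PH_hs_0031180) had 1188 in DDX3+YAPsi, 952 in DDX3 and 873 in vector, whereas its dimmer probe (PH_hs_0060649) had 350, 456 and 465. The DDX3+YAPsi library was the highest for the brighter probe and fell short of the floor for the dimmer one. The dimmer probe therefore has no measured difference there. Below the floor it stood at -0.41 for DDX3+YAPsi over vector and -0.38 for DDX3+YAPsi over DDX3. Both are opposite in sign to the brighter probe, which had 0.32 in the latter. The brighter probe gave 0.44 for DDX3+YAPsi over vector, and for DDX3 over vector, where both were measured, the probes gave 0.12 and -0.03. That gap of 0.16 lay below the median gap of 0.23 over 2140 genes with 2 measured probes in the same comparison, 60.2% of which had probes of the same sign. Without scaling the brighter CBL probe turned to -0.30 for DDX3+YAPsi over vector and -0.07 for DDX3 over vector.

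**Figure D2:**
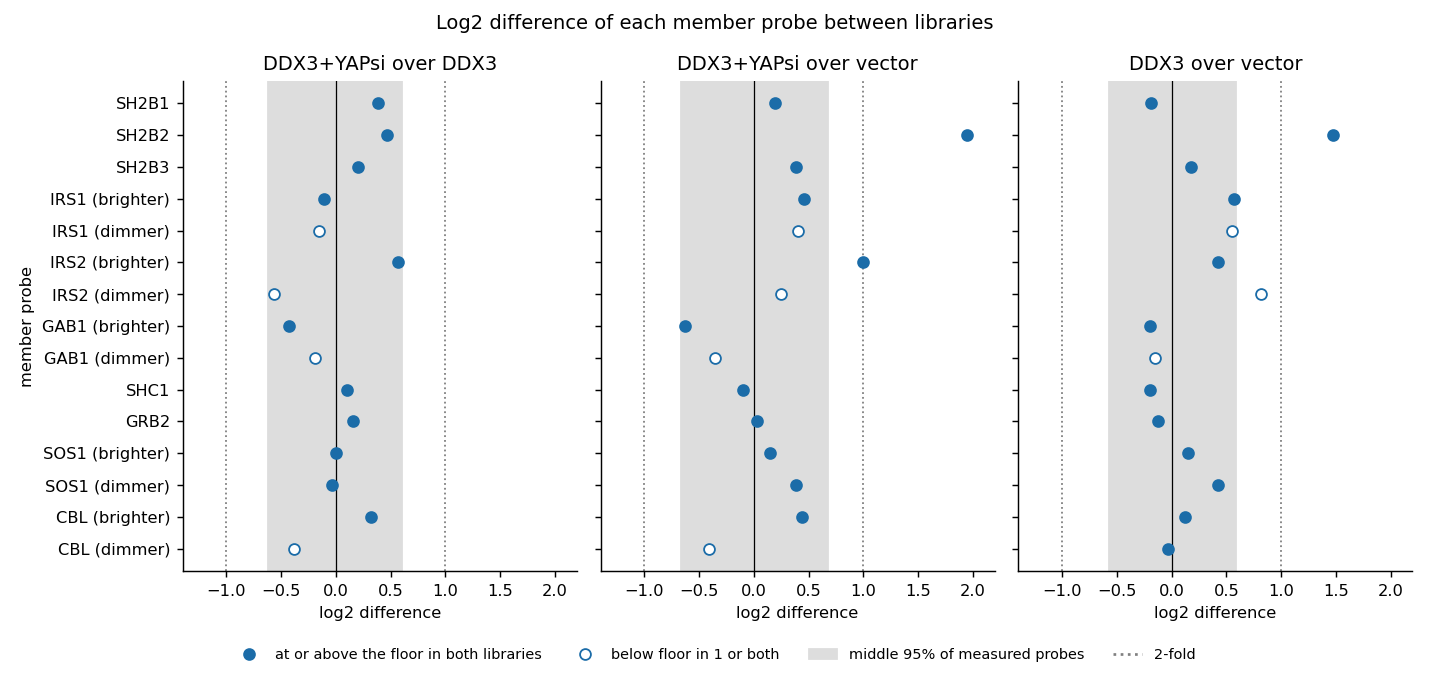
Log2 difference of each of the 15 member probes (rows) in the 3 comparisons (panels), with filled points for probes at or above the floor in both libraries, open points for the others, and grey for the middle 95% of all measured probes. SH2B2 lies outside the grey band at 1.95 and 1.48 against the vector library, and the brighter IRS2 probe lies outside it at 0.996.

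Over the whole set, every member gene was measured in each comparison by at least 1 probe. Against the vector library, 11 of 15 member probes were measured in DDX3+YAPsi and 1, that of SH2B2, was called at least 2-fold higher, with none lower, beside 0.397% of all measured probes called higher and 0.382% called lower. For DDX3 over vector 12 were measured and again SH2B2 alone was called higher and none lower, beside 0.251% and 0.243%. Between DDX3+YAPsi and DDX3, 0 of 11 member probes were called, beside 0.221% higher and 0.221% lower. The contrasts with the vector library chose the set, so nothing is read from the first 2 counts. At 1.5-fold in either direction 3 member probes passed for DDX3+YAPsi over vector, those of SH2B2, IRS2 and GAB1, beside 8.30% of all probes. At that threshold 1 passed for DDX3 over vector, beside 4.92%, and 0 for DDX3+YAPsi over DDX3, beside 6.06%.

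The median log2 difference over measured member probes was 0.38 for DDX3+YAPsi over vector, with 9 of 11 above 0, beside 0.02 over all measured probes, 52.4% of which were above 0. It was 0.29 without SH2B2. With DDX3+YAPsi over DDX3 the median was 0.16, with 7 of 11 above 0, beside 0.02 and 52.2% of all measured probes. For DDX3 over vector it was 0.14, with 7 of 12 above 0, beside -0.01 and 48.8%. Without scaling the medians of all measured probes were -0.72, -0.53 and -0.20 in these comparisons, and those of the members -0.36, -0.38 and -0.06. The members' median minus that of all probes was 0.36, 0.14 and 0.14, which 1 factor per library cannot alter. Under other choices of floor and gene value it ranged from 0.05 to 0.25, from -0.08 to 0.16 and from -0.18 to 0.145 in these comparisons. The lowest values came with a floor at the 75th percentile in both comparisons with vector, and with no floor for DDX3+YAPsi over DDX3. The highest came with the brightest probe of each gene in both comparisons with vector, and with a floor at the 75th percentile for DDX3+YAPsi over DDX3. Comparisons that share a library are not independent of each other.

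**Figure D3:**
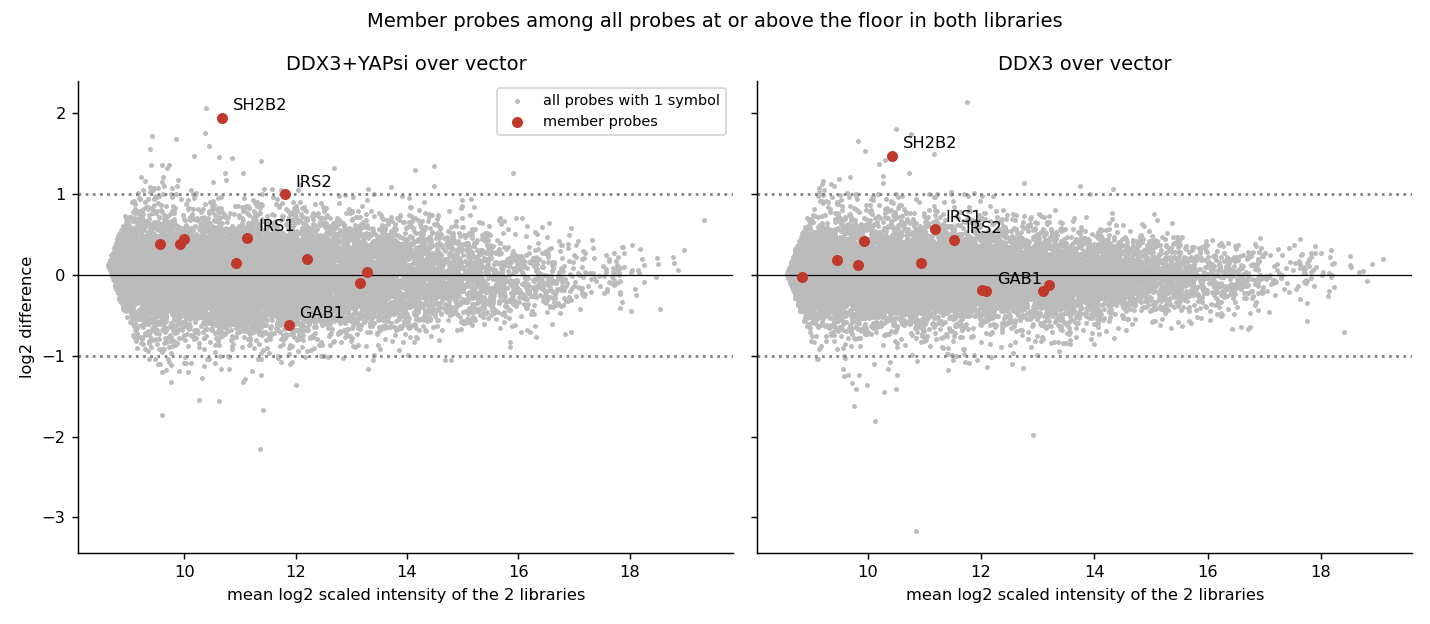
Log2 difference against mean log2 scaled intensity for all probes with 1 gene symbol at or above the floor in both libraries (grey), with the member probes in red, for DDX3+YAPsi over vector and DDX3 over vector, with dotted lines at 2-fold. SH2B2 stands apart from the cloud at 1.95 and 1.48, IRS2 lies at the 2-fold line on the left (0.996), and GAB1 lies at -0.63 and -0.20.

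By order of the libraries, 11 member probes were measured in all 3. The order DDX3+YAPsi, DDX3, vector from high to low was that of 4 of them (SH2B2, IRS2, SH2B3 and the brighter CBL probe), beside 19.0% of 12940 probes. The vector library was lowest for SH2B2 by the choice of the set. Such orders depend on the scaling. Without it IRS2 kept this order and SH2B2 had the DDX3 library highest, while SH2B3 and the brighter CBL probe ran from vector down to DDX3+YAPsi. The library labelled DDX3 was the highest and the vector library the lowest for 3 (IRS1 and both SOS1 probes), beside 13.3%. SH2B1 and GRB2 were lowest in the library labelled DDX3 and highest in that labelled DDX3+YAPsi, GAB1 ran from vector down to DDX3+YAPsi, and SHC1 was highest in the vector library and lowest in that labelled DDX3.

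The neighbouring genes of the pathway were taken from 4 lists. Of all measured probes at most 0.397% were called past 2-fold in either direction in any comparison. Relatives of the adaptors and docking proteins had 16 to 17 of 27 genes measured and no probe past 2-fold. Their median was -0.02 for DDX3+YAPsi over vector with 8 of 19 probes above 0, led by DOK7, the docking protein of the muscle receptor MUSK, with 10852 against 6349 (0.77), while DOK4 was at -0.60 and FRS2, a docking protein of FGF receptors, at -0.55. Against DDX3, the DDX3+YAPsi library gave a median of 0.18 with 17 of 20 above 0, with DOK7 at 0.53, FRS3 at 0.49 and GAB2 at 0.44. For DDX3 over vector it was -0.14 with 4 of 19 above 0, with DOK4 at -0.70, CRKL at -0.62 with its dimmer and -0.14 with its brighter probe, and GRB7 at -0.49 and -0.24 likewise. Of all measured probes 52.4% were above 0 for DDX3+YAPsi over vector, 52.2% for DDX3+YAPsi over DDX3 and 48.8% for DDX3 over vector. Such counts depend on the scaling. Without it the medians of all measured probes were -0.72, -0.53 and -0.20 in these comparisons.

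Receptors and kinases that SH2B proteins bind had 19 of 21 genes on the array and 8 measured. Both INSR probes, for the insulin receptor, were below the floor in every library, at 153, 158 and 149 and at 29.0, 27.0 and 37.5 in DDX3+YAPsi, DDX3 and vector. The brighter IGF1R probe, for the related IGF1 receptor, had 3843 in DDX3+YAPsi, 3047 in DDX3 and 2720 in vector, a difference of 0.50 for DDX3+YAPsi over vector. FGFR3, a receptor for fibroblast growth factors, had 4454, 3210 and 2483, with 0.84 for DDX3+YAPsi over vector, 0.47 for DDX3+YAPsi over DDX3 and 0.37 for DDX3 over vector. The medians of this list were -0.01, -0.23 and 0.11 in these comparisons, with no probe past 2-fold. JAK1 and JAK3, kinases of cytokine receptors, each had 2 measured probes that differed in size. JAK1 was at -0.56 with the dimmer and -0.23 with the brighter probe for DDX3+YAPsi over DDX3, and at 0.49 and 0.22 for DDX3 over vector. JAK3 was at 0.64 with the brighter and 0.21 with the dimmer probe for DDX3+YAPsi over DDX3, whereas for DDX3 over vector its probes stood at -0.48 and 0.12 and so differed in sign. TYK2 was at -0.53 for DDX3+YAPsi over vector.

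Enzymes recruited by docking proteins or acting downstream of them had 10 of 17 genes measured and held the only probes of these lists past 2-fold. AKT1, the kinase downstream of phosphoinositide 3-kinase, had 3225 in DDX3+YAPsi, 2971 in DDX3 and 6530 in vector with its brighter probe. Both libraries with the DDX3 plasmid lay at about the same level, below the vector library, with differences of -1.02 for DDX3+YAPsi over vector and -1.14 for DDX3 over vector. The dimmer AKT1 probe had 406, 495 and 700, below the floor in the first library, and -0.50 for DDX3 over vector. PIK3R3, a regulatory subunit of phosphoinositide 3-kinase, had 584, 695 and 1198 with one probe, -1.04 for DDX3+YAPsi over vector, and 4517, 4807 and 5023 with the other, -0.15. Between DDX3+YAPsi and DDX3, AKT2 was at 0.75, the SHP2 gene PTPN11 at -0.50 and PIK3R2 at 0.48. That AKT2 probe was near the floor in DDX3, at 443 beside 382. The other AKT2 probes, below the floor in every library, stood at 0.59 and 0.35. A second PIK3R2 probe, also below it, stood at 0.40. The medians of the list were 0.05 for DDX3+YAPsi over vector, -0.02 for DDX3+YAPsi over DDX3 and -0.09 for DDX3 over vector. Of 12, 12 and 13 measured probes, 0, 0 and 0 were past 2-fold higher and 2, 0 and 1 past 2-fold lower. Of all measured probes 0.397%, 0.221% and 0.251% were called higher and 0.382%, 0.221% and 0.243% lower.

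Partners and regulators of CBL had 9 to 10 of 14 genes measured and none past 2-fold, with medians of 0.03, -0.07 and 0.07 in the same order. FLOT1, a membrane scaffold protein, had 14545 in DDX3+YAPsi, 10285 in DDX3 and 14401 in vector, so that the DDX3 library was the lowest, with 0.50 for DDX3+YAPsi over DDX3 and -0.49 for DDX3 over vector. RAPGEF1, an exchange factor for RAP1, was at 0.46 and FLOT2 at -0.35 for DDX3+YAPsi over vector. SH3KBP1, the CBL-binding adaptor CIN85, was at 0.43 with its dimmer and -0.18 with its brighter probe for DDX3 over vector, and thus gave no single direction. SORBS2 was at 0.39 with its dimmer and 0.08 with its brighter probe in that comparison.

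**Figure D4:**
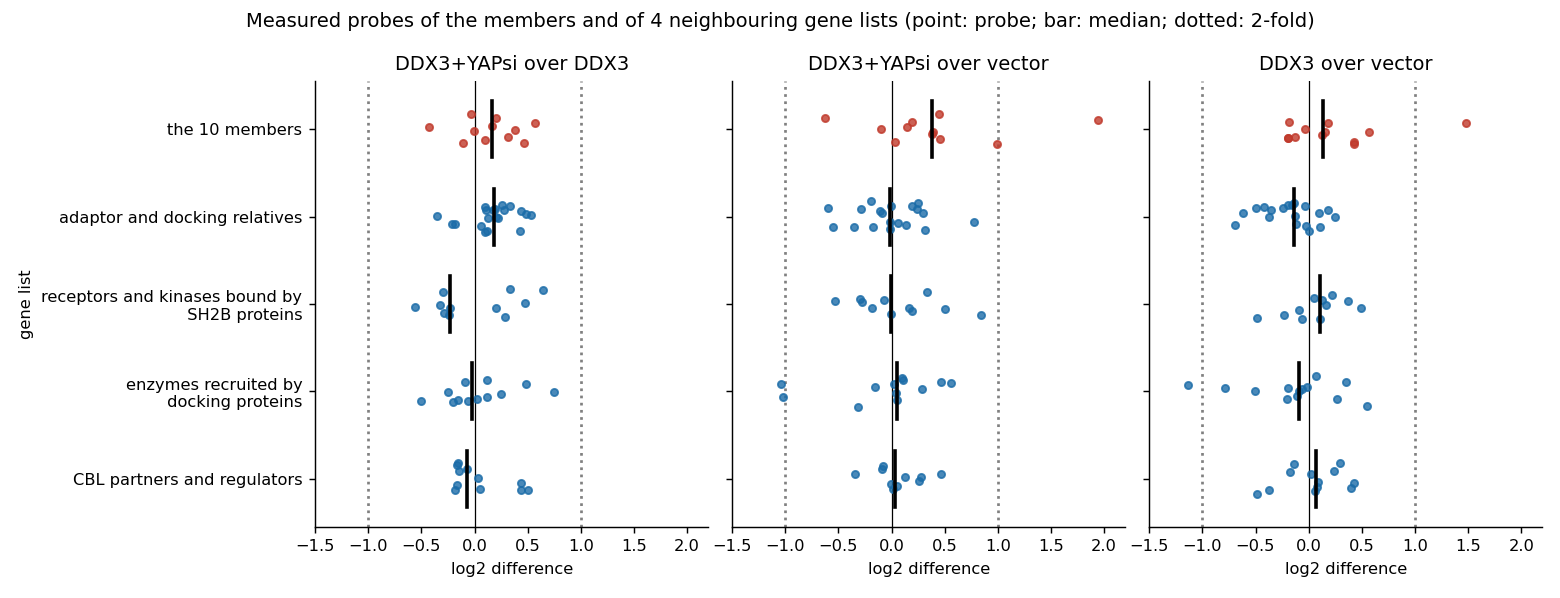
Log2 difference of every measured probe of the 10 members (red) and of 4 neighbouring gene lists (blue) in the 3 comparisons, with a bar at each median and dotted lines at 2-fold. The members' median for DDX3+YAPsi over vector is 0.38 (0.29 without SH2B2), while those of the 4 lists lie between -0.02 and 0.05. The members, unlike the lists, were chosen through SH2B2 in the contrasts with vector, so nothing is read from that gap. For DDX3+YAPsi over DDX3 the members' median is 0.16 and those of the lists lie between -0.23 and 0.18. For DDX3 over vector it is 0.14 beside -0.14 to 0.11.

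The probes whose pattern was most like that of SH2B2 were sought by the larger of the gaps in log2 difference for DDX3 over vector and DDX3+YAPsi over vector, among 12939 other probes measured in all 3 libraries. The nearest was ATF3, a stress-responsive transcription factor, with a larger gap of 0.19 and 2443, 1880 and 725 in DDX3+YAPsi, DDX3 and vector. ARHGAP32, a GTPase-activating protein, followed with a gap of 0.27, although its second probe stood at 0.47 where the first had 1.68 for DDX3+YAPsi over vector. SHBG (0.59), the aminopeptidase RNPEP (0.60) and the chemokine CCL5 (0.66) came next. The SHBG probe was at only 1.11 times the floor in vector. A second SHBG probe, below the floor, was at -0.03 for DDX3 over vector, against 0.98 for the first. The second CCL5 probe was at -0.63 for DDX3 over vector, against 2.13 for the first. Likeness over 3 single libraries is a description.

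Scaling set part of these values. With DDX3+YAPsi over vector all measured probes split into 52 higher and 50 lower at 2-fold, into 28 and 92 with scaling to the median, and into 3 and 2718 without scaling. With DDX3+YAPsi over DDX3 the split was 29 and 29, against 17 and 43 with the median, 19 and 33 with loess and 4 and 894 without scaling. For DDX3 over vector it was 33 and 32, against 12 and 82 without scaling. SH2B2 stayed past 2-fold above the vector library under each of the 5 scalings, between 1.21 and 1.95 for DDX3+YAPsi and between 1.28 and 1.48 for DDX3. These contrasts chose the set and come from the same arrays, so the ranges are a description and no support.

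**Figure D5:**
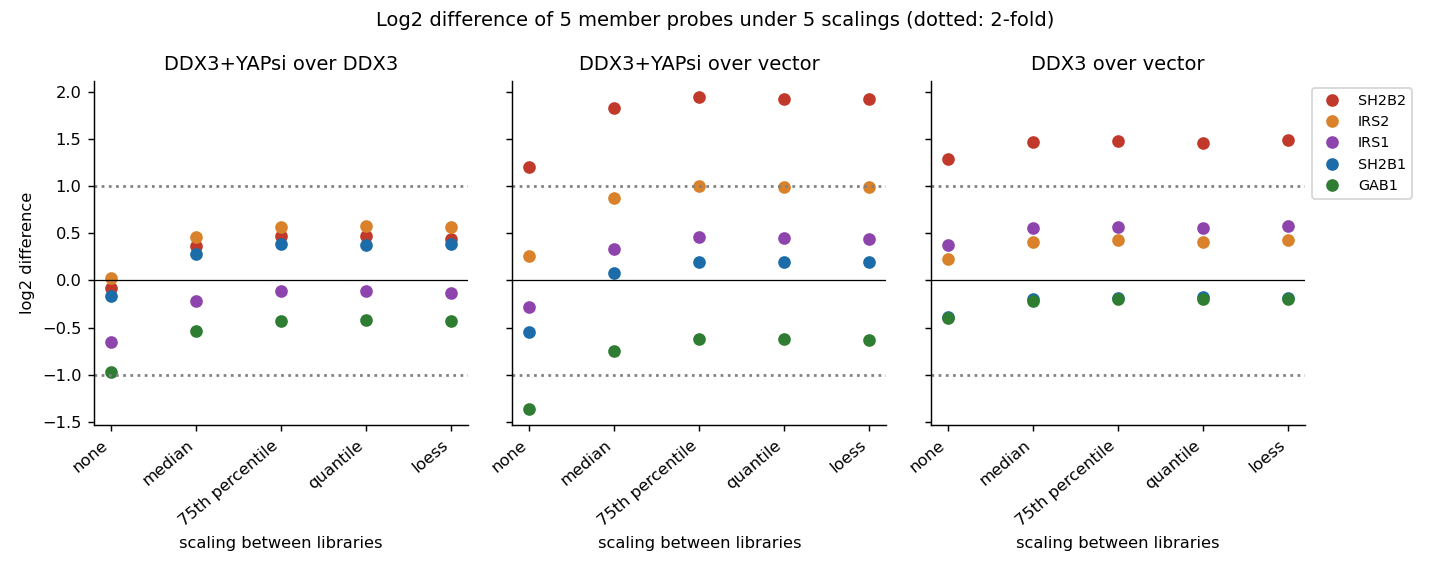
Log2 differences of the SH2B2, IRS2, IRS1, SH2B1 and GAB1 probes (for genes with 2 probes, the brighter) under 5 scalings between libraries, in the 3 comparisons, with dotted lines at 2-fold. SH2B2 stays above 1 in both panels against the vector library, the contrasts that chose the set, under every scaling. IRS2 ranges from 0.26 to 0.996 for DDX3+YAPsi over vector, and GAB1 passes -1 there without scaling, at -1.37.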

How the data were processed

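Total RNA of 3 SW48 samples was amplified with an amino allyl kit and labelled with Cy5, per the labels, which also state 2 technical replicates per sample. What the authors deposited is a linear intensity per probe, and the libraries' medians differ. The combination of technical replicates, background correction and flags are not stated in the labels.

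Gene symbols are those of the array platform and may be outdated (of 31741 probes 24658 had 1 gene symbol, 1002 several and 6081 none). Chromosome, position and promoter sequences came from RefSeq tables of GRCh38.p14. Each library was scaled by its 75th percentile (factors of 1.35, 0.922 and 0.806 for DDX3+YAPsi, DDX3 and vector) and log2 was taken. Each probe was kept by itself. Members and gene lists were chosen with earlier results of these data known. Named genes are the 10 members, DDX3X and YAP1, per list and comparison the probes past 2-fold or else the 3 genes with the largest differences, and the 5 probes most like SH2B2. The text prints part of what the list rule allows. With 1 sample per group no test was possible and no p-value is given. Alternatives were other scalings, floors, an offset, gene values and a 1.5-fold threshold. The steps were tested on simulated data, with large differences planted in bright probes. That test does not cover small differences or dimmer probes. Python 3.11.15, numpy 2.4.6, pandas 2.3.3 and statsmodels 0.14.6 (loess) were used.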

Additional observations from a re-analysis of the deposited data

How the results depend on the processing

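With 1 sample per group a difference has no replicate check, and how far the values are precise is not known. No paired analysis was possible because each group holds 1 sample. SH2B2 kept its direction in both comparisons with the vector library under each scaling and with the offset, the settings that can move a single probe. Those comparisons chose the set, so this is a description and no support. For DDX3+YAPsi over vector the members' median of 0.38 became -0.36 without scaling, 0.26 with scaling to the median, 0.033 with a floor at the 75th percentile, 0.25 with no floor and 0.20 with the mean of a gene's probes. For DDX3+YAPsi over DDX3 the median of 0.16 became -0.38 without scaling, 0.054 with scaling to the median, 0.049 with a floor at the 25th percentile, -0.0032 with no floor and 0.052 with the mean of a gene's probes. For DDX3 over vector the median of 0.14 became -0.058 without scaling, -0.19 with a floor at the 75th percentile and 0.047 with the mean of a gene's probes. The floor at the 75th percentile leaves 5 member probes against the vector library and drops SH2B2, so the count past 2-fold was 0 in both of those comparisons. For DDX3+YAPsi over vector the count was 2 without scaling, where GAB1 was called lower beside SH2B2 higher, with 20.8% of all measured probes (2718 of 13098) called lower, and 3 at 1.5-fold, beside 8.30% of all probes. The cause of the other shifts was not tested.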
